A study of Mus musculus with 10 samples.

Results

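The control group was 5 of the 10 pups of the study, and its baseline profile is described here across all 545 endogenous genes of an nCounter mouse immune panel. The 5 lanes are those labelled control 1, 18, 40, 52 and 69, chosen by their labels alone, and no comparison with the other group (labelled BDS) was made. Each lane held RNA from hippocampal microglia of 1 male Balb/c pup at postnatal day 14, and the 10 pups came from different litters. Cells were enriched by Percoll density gradient, then sorted by FACS, and 2 ng of RNA was copied into cDNA and amplified by 5 rounds of PCR before hybridisation. The labels do not state how control pups were reared, and the sources used here do not give the antibodies of the sort.

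Microglia are the resident macrophages of brain tissue. They arise from yolk sac progenitors, depend on signalling through the receptor encoded by Csf1r, and in the young hippocampus engulf synaptic material and dying cells. In an immune panel of this kind each gene is read by a probe whose fluorescent barcodes are counted, so that a count depends on the target RNA and on how well its primers and probe work. A rank below is therefore a rank of counts, not of molecules. In bulk samples such as these, fewer cells of a type and less RNA per cell cannot be told apart.

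The 4 markers used to check the label were among the brightest genes of the panel. Csf1r, the receptor for colony-stimulating factor, took 6.48%, 8.64%, 8.50%, 11.1% and 14.8% of the endogenous counts in controls 1, 18, 40, 52 and 69. Itgam, the CD11b chain of the complement receptor CR3, took 11.9%, 10.1%, 7.32%, 6.69% and 7.57%. Cx3cr1, the fractalkine receptor, took 2.10%, 2.40%, 1.89%, 5.13% and 2.74%. Itgam had its highest share in control 1 and Csf1r in control 69, while Cx3cr1 stood highest in control 52. Trem2, a lipid-sensing receptor of phagocytes, had shares of 0.954%, 1.14%, 1.19%, 1.35% and 1.47%. All 15 genes on the panel from a list of microglial identity lay above the background limit in every lane, beside 36.3% of the whole panel. Together these 15 genes held 39.0% ± 3.16 (SD, n = 5) of the endogenous counts, between 36.2% and 43.1%. Their median rank was 12 of 545. The list was chosen with earlier results of these data known, so it is no independent check of the label.

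Lanes differed widely in signal. Endogenous counts summed to 340191, 459707, 802033, 76237 and 179925 in controls 1, 18, 40, 52 and 69, a 10.5-fold range. The geometric mean of the 6 housekeeping genes used for scaling ranged 9.38-fold over the same lanes, and that of the spiked positive control probes 1.26-fold. Control 52 was the shallowest lane and stood apart from the rest: over the genes detected in every lane, log2 normalised counts correlated between pairs of lanes at Pearson r of 0.842 to 0.932 when control 52 was one of the pair, and the highest pair reached 0.981. These are correlations across genes, which are not independent replicates. The main values of spread and detection are given with and without control 52. Counts pass through PCR and are not independent molecules, so counting intervals cover counting error only: for Csf1r in control 52, the 95% Wilson interval was 10.9% to 11.4%, much narrower than the spread between pups.

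A small set of genes carried most of the signal. The 10 genes with the highest mean share held 50.9% ± 2.67 (SD, n = 5) of the endogenous counts, between 47.7% and 54.1%, and 10 genes were needed to reach 50%. The highest 40 held 75%, 90 held 90% and 259 held 99%. The 3 leading genes were the same in each of the 5 lanes, and 9 of the 10 leading genes by mean share were in the top 10 of every lane.

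**Figure D1:**
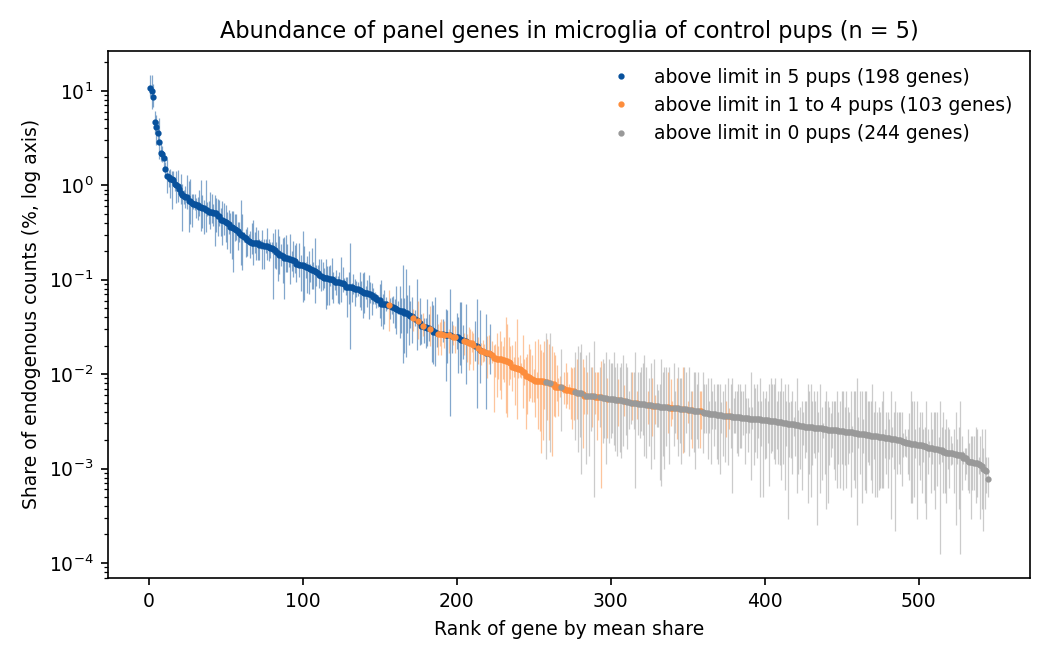
Share of endogenous counts (percent, log axis) against rank for the 545 endogenous genes, with the mean over the 5 control pups and the range over pups. The curve is steep: the 10 leading genes hold 50.9% of counts, and genes above the background limit in every lane are marked apart from those above it in none.

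Cd81, a tetraspanin that organises receptors in the plasma membrane, had the highest mean share, 10.7% ± 2.30 (SD, n = 5). Its shares were 14.7%, 10.6%, 8.71%, 9.84% and 9.85%, so control 1 was high and the other 4 lay close together. Csf1r followed at 9.92% ± 3.20 and Itgam at 8.71% ± 2.19. The order of these 3 was not fixed: Cd81 ranked first in controls 1, 18 and 40, whereas Csf1r ranked first in controls 52 and 69, and the ranges of the 3 genes overlapped. When control 1 was left out, Csf1r had the highest mean share.

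Lysosomal and complement genes came next. Ctss, a lysosomal cysteine protease that trims antigen, took 4.72%, 4.56%, 6.15%, 3.53% and 4.63% of counts. Cd164, a sialomucin that cycles through lysosomes, took 3.94%, 4.68%, 5.58%, 2.64% and 4.01%. Both were highest in control 40 and lowest in control 52. C1qb, a chain of the complement initiator C1q, took 2.74%, 3.15%, 2.84%, 4.47% and 4.79%, with controls 52 and 69 above the other 3. Its partner chain C1qa took 2.27%, 2.07%, 2.85%, 1.92% and 1.79%, with controls 52 and 69 below the other 3. The ratio of these neighbouring chains therefore differed between the same lanes, with no value tested.

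The remaining members of the leading 20 were receptors and signalling genes. Tgfbr2 and Tgfbr1, which together form the receptor for TGF-beta, had mean shares of 2.12% ± 0.326 and 1.25% ± 0.394 (SD, n = 5), and the ligand Tgfb1 had 1.47% ± 0.191. Ifngr1, the ligand-binding chain of the interferon-gamma receptor, had 1.96% ± 0.333. Il10ra, a receptor chain for the anti-inflammatory cytokine IL-10, had 1.03% ± 0.157, and Il6ra, a receptor chain for IL-6, had 1.16% ± 0.339. Control 52 stood low for Il6ra, at 0.565% against 1.27% to 1.41% in the other 4 pups. Ccr6, a chemokine receptor best known from lymphocytes and dendritic cells, ranked 16 of 545 with shares of 1.06%, 1.13%, 1.42%, 1.05% and 0.984%, which lay close together in all 5 pups. Npc1, a cholesterol exporter of late endosomes, Ctnnb1, the beta-catenin gene, Fcgr1, the high-affinity IgG receptor, and Emr1, which encodes the macrophage antigen F4/80, had mean shares of 1.18%, 1.00%, 0.984% and 0.915%. Neighbours in this order mostly overlapped over pups, so ranks within about 10 to 20 are not separated by these 5 lanes.

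**Figure D2:**
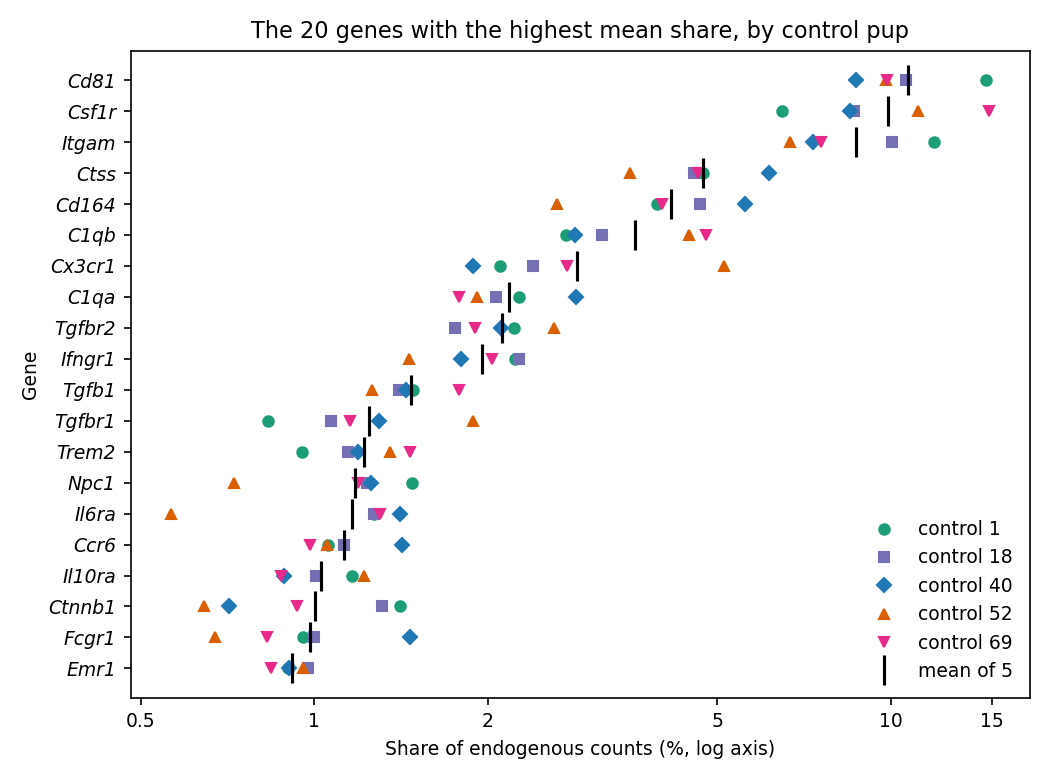
Share of endogenous counts (percent, log axis) of the 20 genes with the highest mean share, 1 point per control pup and a black line at the mean. Cd81, Csf1r and Itgam lie between 6.48% and 14.8% in all 5 pups and overlap one another, and Emr1 has the tightest points of the set, from 0.841% to 0.976%.

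The promoters of 4 brightly read genes of myeloid cells are printed beside those of Cd81 and Cd164, broadly used membrane genes, because PU.1, the transcription factor that defines the macrophage lineage, recognises a core that contains GAGGAA. Each window is the 250 bases before the RefSeq gene start in the mouse assembly GRCm38.p6, 5′ to 3′ on the strand of the gene; the assembly is of another strain than these Balb/c pups. Capitals mark GAGGAA or its reverse complement TTCCTC.
Itgam, chr7:128062390-128062639, plus strand: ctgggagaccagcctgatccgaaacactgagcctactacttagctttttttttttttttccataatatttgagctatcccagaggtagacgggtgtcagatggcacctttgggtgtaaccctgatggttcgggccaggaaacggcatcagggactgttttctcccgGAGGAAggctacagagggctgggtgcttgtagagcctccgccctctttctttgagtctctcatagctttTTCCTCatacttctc
C1qb, chr4:136886201-136886450, minus strand: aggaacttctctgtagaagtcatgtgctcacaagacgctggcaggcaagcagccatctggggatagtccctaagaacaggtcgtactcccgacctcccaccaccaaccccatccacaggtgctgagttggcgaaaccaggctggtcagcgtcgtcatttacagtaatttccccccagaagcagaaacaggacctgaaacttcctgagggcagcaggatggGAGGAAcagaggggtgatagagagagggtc
Trem2, chr17:48346151-48346400, plus strand: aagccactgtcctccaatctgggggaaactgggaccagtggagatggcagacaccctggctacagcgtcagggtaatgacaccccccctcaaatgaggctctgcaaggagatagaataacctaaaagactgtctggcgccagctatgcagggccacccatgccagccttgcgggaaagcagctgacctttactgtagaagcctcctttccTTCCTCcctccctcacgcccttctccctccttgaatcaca
Cx3cr1, chr9:120068297-120068546, minus strand: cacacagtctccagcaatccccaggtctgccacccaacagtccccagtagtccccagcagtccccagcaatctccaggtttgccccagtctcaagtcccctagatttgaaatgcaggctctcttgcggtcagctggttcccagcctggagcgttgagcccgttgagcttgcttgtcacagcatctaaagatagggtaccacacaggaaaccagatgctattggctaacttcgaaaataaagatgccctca
Cd81, chr7:143052500-143052749, plus strand: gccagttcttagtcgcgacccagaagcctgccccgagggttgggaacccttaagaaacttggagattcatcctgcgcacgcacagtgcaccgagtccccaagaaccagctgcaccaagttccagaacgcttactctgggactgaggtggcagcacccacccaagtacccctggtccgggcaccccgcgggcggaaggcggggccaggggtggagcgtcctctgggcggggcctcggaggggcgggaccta
Cd164, chr10:41519250-41519499, plus strand: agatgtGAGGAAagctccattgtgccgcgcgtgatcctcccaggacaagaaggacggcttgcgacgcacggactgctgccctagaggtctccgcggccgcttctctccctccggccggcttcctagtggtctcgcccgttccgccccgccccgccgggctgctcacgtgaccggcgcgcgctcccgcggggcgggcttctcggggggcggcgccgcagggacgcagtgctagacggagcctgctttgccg
The Itgam window held the motif once in each orientation, 84 and 15 bases before the start, whereas the windows of C1qb and Trem2 held it once each, 30 and 40 bases before the start. The window of Cd164 held it 244 bases before the start, and those of Cx3cr1 and Cd81 held no match, so matches and their absence occur among both kinds of gene. Counted on both strands, GAGGAA was found in 10 of the 15 leading genes with a window (66.7%), in 37.2% of 156 genes detected in every lane, in 33.5% of 179 genes detected in no lane and in 25.9% of 27025 RefSeq genes. The longer GAGGAAGT, which overlaps it, was in 0 of the 15, 4.49%, 3.35% and 2.79% of the same sets, and the unrelated TATAAA in 2 of the 15, 11.5%, 23.5% and 14.3%. Also counted were AGGAAGT, in 4 of the 15, 17.3%, 15.1% and 8.80%, and GGAAGTG, in 2 of the 15, 13.5%, 10.6% and 9.77%. A match describes the letters of a window only, and the sets were not tested against each other.

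Detection was judged lane by lane. A gene was called detected where its raw count exceeded the mean plus 2 SD of the 8 negative control probes of its own lane, a limit of 26.0, 24.5, 25.5, 24.4 and 13.9 raw counts in controls 1, 18, 40, 52 and 69. The lanes had 246, 261, 290, 201 and 263 genes above it (mean 252 ± 32.7, SD, n = 5). Over the whole panel, 198 of 545 genes (36.3%) were detected in all 5 lanes and 244 (44.8%) in none. The 198 genes held 98.0% ± 0.743 of the endogenous counts, and the 244 held 0.756% ± 0.530. The deepest lane had the most detected genes and the shallowest the fewest, and control 69, whose limit was lowest, had the second most.

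The genes between those ends followed lane depth. Of 43 genes detected in 4 lanes, 42 were missed only in control 52, and of 32 genes detected in 1 lane, 23 were detected only in control 40, the deepest. Without control 52, 240 genes were detected in all remaining lanes. Just inside the limit in control 52 were the chemokine gene Ccl4 and the immunoproteasome subunit Psmb9, with 25 raw counts each, and the cytokine gene Il18 with 26. Just outside were Cfp, which encodes properdin, and the kinase gene Ikbkb with 24 each, and the interferon regulatory factor Irf3 with 23. Whether such genes passed in all 5 lanes was set by 1 or 2 counts in 1 lane.

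Among complement genes the signal was concentrated in few members. Of 10 classical pathway genes, 3 were detected in all 5 lanes (C1qb, C1qa and C1qbp) and 5 in none. The 3 are 30% of the list, near the 36.3% of the whole panel, and 44.8% of the panel was detected in no lane. The list held 5.96% ± 0.698 (SD, n = 5) of counts, nearly all of it in the C1q chains. C3, the central component, read 7, 10, 13, 1 and 4 raw counts and was under the limit in every lane. Of 15 genes of the alternative, lectin and terminal pathways, 1 (6.67%) was detected in all lanes and 12 in none. Itgam and Itgb2, the chains of CR3, were the 2 of 8 complement receptors and regulators (25%, against 36.3% of the panel) detected throughout. Itgb2 read 408, 608, 946, 176 and 346 raw counts, above the limit in every lane.

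Genes of uptake and degradation were mostly detected, beside the 36.3% of the whole panel. Of 14 genes for Fc receptors and phagocytosis, 9 were detected in all 5 lanes and 4 in none, with 4.76% ± 0.409 of counts. Tyrobp, the adaptor of Trem2, read 1124, 2025, 2926, 870 and 1168 raw counts, so that its share was highest in control 52. The kinase gene Syk, which signals downstream of such adaptors, read 2019, 3073, 5633, 235 and 1016. Of 5 lysosomal genes, 4 were detected in all lanes and held 10.2% ± 2.19 together, and the neutrophil protease Ctsg was detected in none.

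Receptor genes held more of the counts than ligand genes. Of 35 cytokine receptor genes, 18 (51.4%, beside 36.3% of the panel) were detected in all 5 lanes and 10 in none. The list held 21.6% ± 2.71 (SD, n = 5) of counts, led by Csf1r. Of 40 interleukins and inflammatory cytokines, 5 (12.5%) were detected in all lanes (Tgfb1, Il16, Il1a, Mif and Il18) and 29 in none, with 3.06% ± 0.113. Il1a, an alarmin of the IL-1 family, read 1615, 2639, 4235, 672 and 887 raw counts. Il1b, the other principal ligand of the same receptor, read 25, 29, 61, 6 and 12 and was detected in 2 lanes. Tnf read 118, 359, 413, 22 and 133 and missed the limit in control 52 alone, while Il6 and Il10 were under the limit in all 5. Csf1, a ligand of the receptor Csf1r, read 91, 90, 220, 12 and 42 and again missed the limit in control 52 alone. As probes differ, the gap between ligand and receptor counts is a difference in signal and not a measured ratio of RNA.

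Chemokine genes showed the same shape. Of 26 ligands, 3 (11.5%, beside 36.3% of the panel) were detected in all 5 lanes (Ccl12, Ccl3 and Ccl4) and 17 in none. The ligands held 0.568% ± 0.194 of counts. Ccl3, an inflammatory chemokine of macrophages, read 212, 1043, 2499, 194 and 340 raw counts, so that its share in control 1 (0.0623%) was the lowest of the 5. Of 20 chemokine receptors, 4 (20%) were detected in all lanes, Cx3cr1, Ccr6 and Cmklr1 among them, and 13 in none, Ccr7 and Cxcr4 among them. That list held 4.90% ± 1.56, with 7.66% in control 52 and 3.87% to 4.56% in the other 4 pups.

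TGF-beta signalling had the second highest share of detected members among the pathway lists, after the lysosomal list. It had 7 of 9 genes (77.8%, beside 36.3% of the panel) in all 5 lanes, with 6.72% ± 0.388 (SD, n = 5) of counts. The ligand Tgfb1 read 5039, 6446, 11593, 960 and 3204 raw counts, whereas Tgfb2 and Tgfb3, the other ligands, read at most 21 and were under the limit in every lane. Of 20 Toll-like receptors and adaptors, 15 (75%) were detected in all lanes and 2 in none. Tlr9, the sensor of unmethylated DNA, read 2266, 2304, 4733, 358 and 874, and Cd14, the co-receptor for lipopolysaccharide, read 1440, 2092, 5641, 282 and 690. Tlr2 read 20, 18, 42, 31 and 23 and was detected in 3 lanes, and Tlr8 in none. Ly86, the MD-1 partner of a Toll-like receptor homologue, read 2008, 2587, 3150, 879 and 1226, so that its share was highest in control 52.

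Relays from these receptors to the nucleus were detected for most members. Of 20 NF-kB pathway genes, 14 (70%, beside 36.3% of the panel) were detected in all 5 lanes and 3 in none, with 2.72% ± 0.634 (SD, n = 5) of counts. Nfkb1, which encodes the p50 precursor, read 1345, 1763, 4054, 147 and 600 raw counts, while Rela, its p65 partner, read 718, 994, 2037, 202 and 413. The share of Nfkb1 was lowest in control 52 and that of Rela highest there. Of 16 JAK-STAT genes, 10 (62.5%) were detected in all lanes and 2 in none, with 2.04% ± 0.122. Jak2, a kinase of many cytokine receptors, read 2166, 2626, 4629, 283 and 692, and Stat6, the factor that carries IL-4 signals, read 534, 814, 1131, 184 and 336.

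The interferon response list had 9 of 19 genes (47.4%, beside 36.3% of the panel) in all 5 lanes. It held 0.872% ± 0.166 of counts, led by the transcription factors Irf8, Irf1 and Irf5 and the RNA sensor Ddx58. The chains of the interferon-gamma receptor stood apart from that list, Ifngr1 with 1.96% and Ifngr2 with 0.313% of counts. Of 15 MHC class I and proteasome genes, 9 (60%) were detected in all lanes, with B2m, the shared light chain, at 2005, 2712, 4495, 969 and 1415 raw counts. For MHC class II and co-stimulation, 6 of 15 genes (40%, near the 36.3% of the panel) were detected in all lanes and 7 in none. Cd86, a co-stimulatory ligand, read 552, 983, 2201, 253 and 415, and H2-Ab1, a class II beta chain, read 492, 394, 781, 65 and 171. Its alpha partner H2-Aa read 7 to 17 and was detected in no lane, and Cd74, the class II invariant chain, read 15, 23, 30, 9 and 8 and was detected in control 40 alone. Chains of the same complex thus fell on opposite sides of the limit, and these counts do not say whether target RNA or probe differed.

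Adhesion genes held 22.0% ± 4.25 (SD, n = 5) of counts, most of it in Cd81 and Itgam. Of 23 genes, 9 (39.1%, near the 36.3% of the panel) were detected in all 5 lanes. The integrin chains Itga6 and Itgb1, which pair as a laminin receptor, read 2476, 3695, 10550, 479 and 1200 and 1912, 2837, 6461, 455 and 1028 raw counts. Of 18 kinases and adaptors of immune receptors, 11 (61.1%) were detected in all lanes, led by Ptpn6, a phosphatase that restrains such receptors, at 0.774% ± 0.0941. Of 15 apoptosis genes, 9 (60%) were detected in all lanes. The list held 0.758% ± 0.220, led by Casp8, the initiator caspase of death receptors, at 444, 811, 1890, 190 and 328 raw counts.

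Most genes of a list of fast responses to stimulation were detected in all 5 pups. Of 17 such genes, 12 (70.6%, beside 36.3% of the panel) were detected in all lanes and 3 in none (Cd69, Ptgs2 and Bcl3). The list held 2.55% ± 0.568 of counts (range 1.66% to 3.07%). Nfkbia, the inhibitor that NF-kB itself induces, read 790, 2573, 5413, 226 and 680 raw counts. Nfkbiz, an atypical inhibitor induced in the same way, read 773, 3629, 5506, 285 and 833. The shares of both genes, like that of Ccl3, were lowest in control 1.

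**Figure D3:**
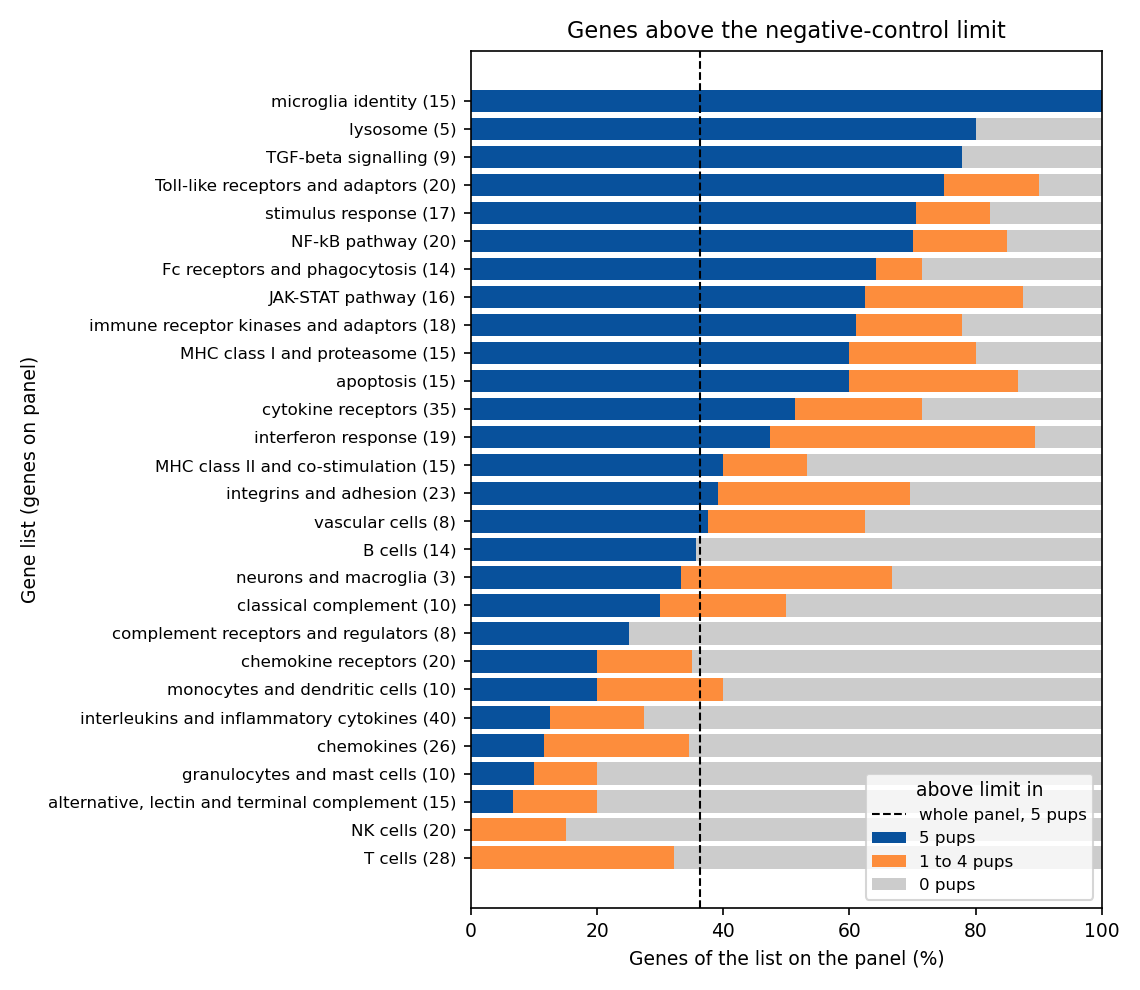
Percent of the genes on the panel in each of 28 gene lists (number in brackets) that were above the background limit in all 5 control lanes, in 1 to 4 or in none, with a dashed line for the whole panel. All 15 genes of microglial identity are above it in every lane, against 0 of 28 T cell genes and 0 of 20 NK cell genes, beside 36.3% of the whole panel. The lists were chosen with earlier results of these data known.

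Markers of other cells were read at low counts, with exceptions. The defining T cell genes Cd3d, Cd3e and Cd247 read 3 to 11 raw counts and were under the limit in every lane. Of 28 T cell genes, 0 were detected in all 5 lanes and 19 in none, beside 36.3% and 44.8% of the whole panel. Cd27, Icos and Tcf7 were detected in all lanes but control 52. The list held 0.119% to 0.239% of counts, highest in control 52 and at most 0.144% without it. No T cell gene passed the limit in control 52, and the negative probes of control 52 averaged 11.1 counts in a total of 76237, against 13.1 in 802033 for control 40; their part in the shares was not tested. The T cell gene with the most counts was Cd27, a receptor of the TNF family, at 91, 153, 307, 12 and 33. NK cell genes held 0.0687% on average, 0 of 20 were detected in all lanes, and the brightest was Prf1, the perforin gene, with at most 115 raw counts. The NK markers Ncr1 and Klrb1c are not among the 545 genes, and Klrd1 was under the limit in every lane.

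Among 14 B cell genes, 5 were detected in all 5 lanes (Blnk, Prdm1, Cd79b, Tnfrsf13b and Tnfrsf17) and 9 in none. The 5 are 35.7% of the list, near the 36.3% of the whole panel. The defining genes disagreed: Cd79b, a chain of the B cell receptor, read 203, 232, 246, 47 and 86 raw counts, above the limit throughout, whereas Ms4a1, which encodes CD20, read 5 to 18, under the limit throughout. The part of B cells in the Cd79b counts was not tested. Of 10 granulocyte and mast cell genes, Csf3r, the receptor for granulocyte colony-stimulating factor, was detected in all lanes at 0.522% of counts, while S100a8 was detected in none and S100a9 in control 69 alone. Of 10 monocyte and dendritic cell genes, 2 were detected in all lanes, Cd83 and Batf3. Ccr2, a receptor of circulating monocytes, read 42, 75, 170, 16 and 30 and was detected in 4 lanes.

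Of 8 vascular genes, 3 were detected in all 5 lanes (37.5%, against 36.3% of the panel) and 3 in none. Pecam1, a junction protein of endothelium that leukocytes and platelets also carry, read 939, 869, 1481, 71 and 259 raw counts, and the endothelial cadherin Cdh5 read 74, 60, 203, 7 and 27, above the limit in all lanes but control 52. The endothelial adhesion genes Vcam1, Icam2 and Sele read at most 18 raw counts and were under the limit in every lane. The 8 vascular genes held 0.504% ± 0.0746 (SD, n = 5) of counts, between 0.408% and 0.601%. Cd34, a sialomucin of endothelium and progenitor cells, read 327, 520, 1063, 62 and 185. Mbp, a myelin gene of oligodendrocytes, read 64, 104, 208, 21 and 65 and was also detected in 4 lanes. App, the amyloid precursor protein gene, stands in the list for neurons and macroglia but is used by many cell types, and it read 3771, 3141, 6458, 245 and 897. For comparison, the 15 microglial genes held 39.0%, and what part cells other than microglia had in any value here was not tested.

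Spread between pups was measured on normalised counts, raw counts divided by the lane's geometric mean of 6 housekeeping genes (Tbp, Sdha, Polr1b, Oaz1, Gapdh and Alas1), as the coefficient of variation (CV, SD over mean). Over the 198 genes detected in all 5 lanes the median CV was 29.7% (quartiles 20.8% and 41.3%), 42 genes had a CV under 20% and 25 (12.6%) had one over 50%. The same 198 genes had a median CV of 23.5% without control 52, and 13 genes were over 50%, of which 9 were among the first 25. The common biological coefficient of variation from edgeR, which sets counting error apart, was 35.7% over the 198 genes with all 5 lanes. Without control 52 it was 26.1%, over the 240 genes detected in all remaining lanes. Among the 20 brightest genes the median CV was 24.3% and none exceeded 50%, against 29.8% and 6 of 80 for ranks 21 to 100 and 30.5% and 19 of 98 below rank 100. The filter bears on the lowest ranks, where a gene had to exceed 81.2 normalised counts in control 52 to be included.

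Emr1 was the most even gene, with normalised counts of 2493, 2636, 2572, 2422 and 2682 and a CV of 4.11%. H2-K1, a classical MHC class I heavy chain, followed with 529, 603, 613, 639 and 670 (CV 8.60%). The other 8 of the 10 most even genes were Cd83, an activation marker of dendritic cells, Pdgfb, a growth factor that recruits pericytes, the interferon regulatory factor Irf1, Il10ra, the immunoproteasome subunit Psmb10, the class II chaperone chain H2-Ob, the transcription factor Ikzf1 and Rela, the p65 subunit of NF-kB, with CVs of 9.46% to 10.9%. Membership of this set was not settled: other scalings by endogenous or housekeeping genes shared 5 to 8 of the 10, scaling by positive controls alone shared 0, and leaving out 1 pup shared 4 to 8.

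Genes of the microglial identity list ran from Emr1 at 4.11% to Tyrobp at 52.0%, with a median CV of 27.0%, and Ikzf1 and Tgfbr2 were at 10.9% and 11.7%. The 4 markers used to check the label had CVs of 21.9% to 39.9%. Csf1r had normalised counts of 17970, 23330, 24168, 28252 and 47218 (CV 39.9%, and 46.1% without control 52), with control 69 well above the rest. Cx3cr1 had 5833, 6468, 5362, 13020 and 8741, a CV of 39.9% that became 22.7% without control 52, with controls 52 and 69 above the other 3. Itgam had 32947, 27159, 20823, 16965 and 24134 (CV 24.99%, and 19.6% without control 52), and Trem2 had 2644, 3086, 3391, 3433 and 4672 (CV 21.9%, and 25.3% without). Control 52 was thus highest of the 5 for Cx3cr1 and lowest for Itgam. Tyrobp had a CV of 52.0%, with control 52 highest, and 40.1% without that pup.

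**Figure D4:**
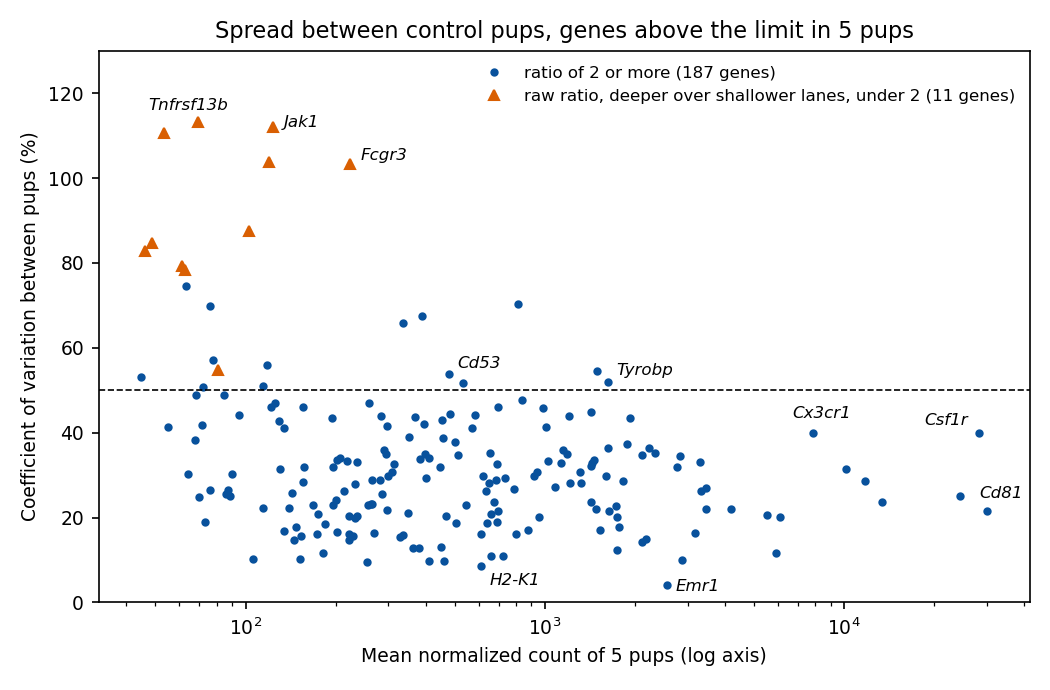
Coefficient of variation between the 5 control pups (percent) against mean normalised count (log axis) for the 198 genes detected in every lane, with triangles for genes whose raw counts did not follow lane signal and a dashed line at 50%. The median is 29.7%, and genes over 50% lie mostly at low counts, with 0 of them among the 20 brightest. A gene is included only if it exceeds the limit of control 52, equal to 81.2 normalised counts.

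The 10 least even genes were read at low counts: Tnfrsf13b and Tnfrsf17, receptors for B cell survival factors, the kinase genes Jak1 and Mapk14, Relb of the NF-kB family, the low-affinity IgG receptor Fcgr3, the transcription factor Cebpb, the TNF receptor family members Tnfrsf14 and Ltbr, and the proteasome subunit Psmd7. Their CVs ran from 78.4% to 113%, and from 32.1% to 78.5% without control 52. Raw counts show how they differ from the rest. Tnfrsf13b read 39, 44, 29, 61 and 43 raw counts in controls 1, 18, 40, 52 and 69, and Fcgr3 read 116, 204, 148, 186 and 131. These stayed near one level while lane totals ranged 10.5-fold, so that the shallowest lane had the highest normalised count. The filter bears on this set, as the limit of control 52 equals 81.2 normalised counts. A gene lower than that in the other pups was ranked only where control 52 was high. Tnfrsf13b, Relb, Tnfrsf14, Tnfrsf17, Ltbr and Psmd7 stood under 81.2 in every other pup. Jak1, Mapk14, Fcgr3 and Cebpb stood above it in control 69.

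The same was seen in a defined set. The mean raw count in the deepest lanes by housekeeping signal, controls 18 and 40, was divided by that in the shallowest, controls 52 and 69. Over the 198 genes the median ratio was 5.02 (quartiles 3.61 and 6.69), close to the 5.23 of the scaling housekeeping mean, whereas the positive control probes had 0.926 and the negative probes 1.40. In 11 of 198 genes (5.56%) the ratio was under 2. Tnfrsf13b had 0.702, Relb and Fcgr3 1.11, Mapk14 1.20, Jak1 1.28 and Ltbr 1.38, and the other 5 were Tnfrsf17, Psmd7, Tnfrsf14, Myd88, the adaptor of most Toll-like receptors, and Cebpb. All 11 had CVs over 50% with all 5 lanes, as the 2 measures read the same counts. Inclusion also took more than 24.4 raw counts in control 52, so a gene with few counts in the deepest lanes could only have a low ratio. The count moved with the lanes compared, to 39 of 240 genes without control 52, 40 of 198 without control 40 and 19 of 198 without control 69. With control 52 left out, 8 of the 11 still had a ratio under 2, while the median of all genes was 2.66 and the housekeeping ratio 2.52.

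**Figure D5:**
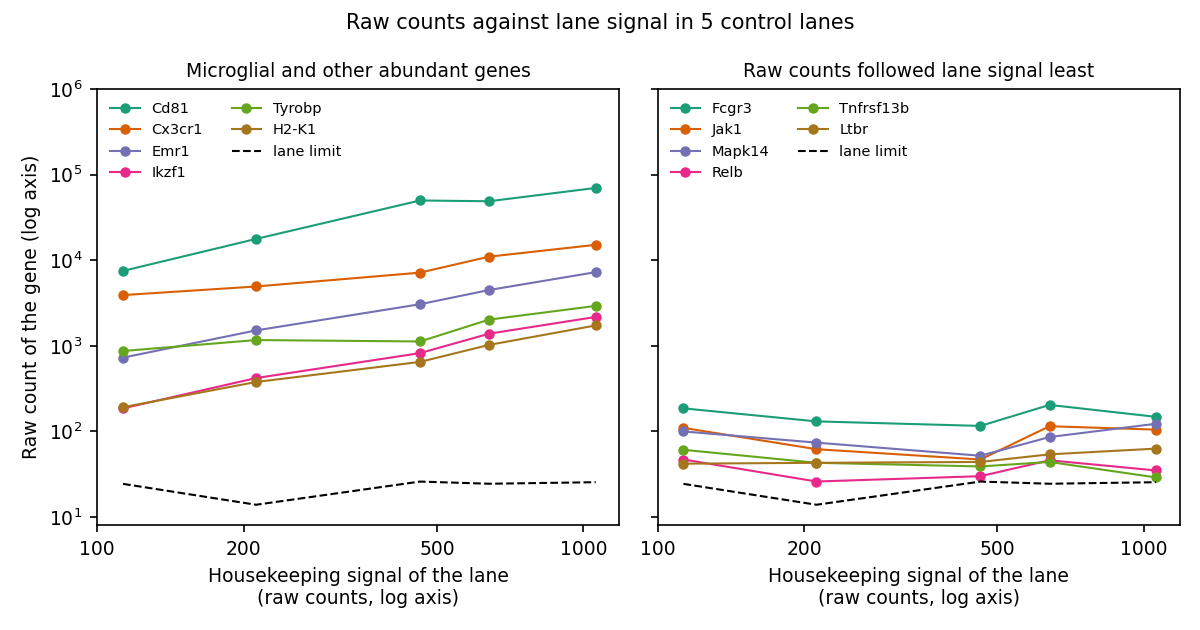
Raw counts (log axis) against the geometric mean of the 6 housekeeping genes in the lane (log axis), 1 point per control pup, for 6 bright genes (left) and the 6 that followed lane signal least (right), with the detection limit dashed. Tnfrsf13b and Fcgr3 stay between 29 and 61 and between 116 and 204 counts across a 9.38-fold range of lane signal, while bright genes rise with it.

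Of the 8 housekeeping genes outside the scaling set, 2 had a ratio under 2. Rpl19, a ribosomal protein gene, read 200, 183, 181, 283 and 173 raw counts, a ratio of 0.798, and G6pdx, of the pentose phosphate pathway, had 1.70. The others ran from 2.12 (Hprt) to 3.97 (Tubb5), so all 8 lay below the 5.23 of the scaling mean. Their CVs ran from 32.9% to 114%. Among the 6 scaling genes the ratios ran from 3.03 (Sdha) to 9.11 (Polr1b). Within the scaling set Polr1b, a subunit of RNA polymerase I, read 42, 51, 122, 6 and 13 and was above the limit in 3 lanes only. Jak1 went from a CV of 112% to 53.9% and Relb from 111% to 50.7% without control 52, Cebpb from 87.5% to 32.1%, and Tnfrsf13b from 113% to 78.5%. Over the same change Mapk14 went from 104% to 64.2%, Fcgr3 from 103% to 61.6%, Tnfrsf14 from 84.6% to 38.3%, Tnfrsf17 from 82.8% to 51.2%, Ltbr from 79.3% to 57.3% and Psmd7 from 78.4% to 42.4%. Control 52 had the highest normalised count of the 5 pups in 70 of the 198 genes and the lowest in 75. The mean over lanes is 39.6 for each count, but it is no fair reference here. A gene had to exceed 81.2 normalised counts in control 52 to be included, against 9.05 in control 40. A gene lower than 81.2 in the other pups was thus counted only where control 52 was high. In control 52 the low signal of the lane and the pup itself cannot be told apart.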

How the data were processed

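The deposited table of raw counts holds whole-number barcode counts per probe, not normalised, for 545 endogenous genes, 14 housekeeping genes, 8 negative and 6 positive control probes. The authors' second deposited table holds scores, normalised counts rounded to whole numbers, which equalled raw counts times 1 factor per lane to within 1.38 units (largest score 111422) and served as an alternative only. The software that made the counts is not given in the sources used here. Per the labels, the authors' scaling used positive controls together with housekeeping genes, naming Alas1, Gapdh, Oaz1, Polr1b, Sdha and Tbp.

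From the raw counts, shares are percent of a lane's endogenous counts. Normalised counts are raw counts over the lane's geometric mean of those 6 genes, rescaled over the 5 control lanes. No test between groups was run, as there is 1 group. Dispersion was estimated with edgeR 4.0.16 in R 4.3.3 (DESeq2 1.42.0 as an alternative). A check on simulated counts for the 198 genes, all given the same spread, returned a common coefficient of 19.9% for a true 20% and 40.1% for a true 40%. With the spread of 40 genes raised, the coefficients estimated per gene had a median in the other genes of 25.7% for a true 20% and 51.5% for a true 40%. The common coefficient was not checked on genes of uneven spread. Tables were made in Python 3.11.15 with pandas 2.3.3. Log2 values carry a pseudocount of 1.

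Named genes are the 20 brightest, the 10 with the largest and the 10 with the smallest CV, up to 4 detected members per list, the brightest gene of each other-cell list, 3 on each side of the detection limit, the 6 that followed lane signal least, the 4 markers and the 6 scaling genes. Beside the defining markers of other cells, genes named that missed the limit in 1 or more lanes (Tnf and Il1b, for example), Ifngr2, Myd88 and the housekeeping genes outside the scaling set fall outside this rule and were chosen after their values were seen. Members and lists were chosen with earlier results of these data known. Of 545 genes, 542 matched RefSeq by symbol or accession, and motif sets use genes with a promoter entry. Values of some panel genes are not reported here.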

Additional observations from a re-analysis of the deposited data

Results flagged for a closer look

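Of 142 values screened in the 5 control pups, 23 (16.2%) had 1 pup set apart from the other 4 by more than 0.71 of the whole range. For values picked without regard to spread, chance gives about 1 in 20. The screened genes include the 10 with the largest CV and the 6 that followed lane signal least, and list sums share genes. The 16.2% therefore cannot be set against that rate. Control 52, the shallowest lane, was the pup set apart in 19 of them.

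Control 52 was lowest for 4 genes in normalised counts. Il6ra read 1434 against 3424 to 4147 in the other 4 pups, Syk 782 against 1645 to 1997, Il16, a T cell chemoattractant, 918 against 1929 to 2264, and Smad3, a transducer of TGF-beta signals, 825 against 2284 to 2793. It was highest for 6 genes outside the housekeeping set. Jak1 read 366 against 37.2 to 110 and Relb 156 against 12.4 to 46.1. Cebpb read 259 and Tnfrsf14 120, both with raw counts that did not follow lane signal. Il1a read 2235 against 1316 to 1571, and Il18 read 86.5 against 27.7 to 40.7. Relb, Tnfrsf14 and Il18 were under 81.2, the normalised limit of control 52, in the other pups. They were screened only because control 52 was high. Among housekeeping genes outside the scaling set control 52 was also highest for Eef1g at 206, Hprt at 76.5 and Rpl19 at 941.

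Summed shares in control 52 were high for T cell genes at 0.239%, NK cell genes at 0.129%, monocyte and dendritic cell genes at 0.218%, chemokine receptors at 7.66%, the interferon response at 1.16% and apoptosis at 1.13%. The other 4 pups reached at most 0.144%, 0.0611%, 0.152%, 4.56%, 0.848% and 0.723% for the same lists. The negative probes averaged 11.1 counts in control 52, beside 76237 endogenous counts, and 13.1 in control 40, beside 802033. A probe at background thus weighs more in a share of control 52. No T cell gene passed the limit in that lane. The part of background in these sums was not tested.

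Control 40, the deepest lane, was highest for the integrin chain Itga6 at 3741 against 1593 to 2170 and for Cd14 at 2000.1 against 938 to 1229, and lowest for Mif, the macrophage migration inhibitory factor, at 241 against 349 to 366. The detection limit of control 69 was the lowest, 13.9 raw counts against 24.4 to 26.0.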

How the results depend on the processing

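Detection and concentration kept within their limits under every alternative run: 185 to 202 genes were above the limit in all 5 lanes under other limits and 198 to 240 with 1 pup left out, the 10 leading genes held 50.2% to 51.7% of counts with 1 pup left out and 52.0% after background subtraction, and 10 genes held 50% throughout. The spread was less settled. Scaling by positive controls alone gave a median CV of 88.0%, 186 genes over 50% and an edgeR common coefficient of 87.0%. With no filter on low counts these were a median of 45.9% and 244 genes over 50%, and 147 genes did not follow lane signal. With only genes above 4 times the limit, 6 genes were over 50% and 1 did not follow lane signal. Leaving out 1 pup at a time gave 13 to 36 genes over 50% and 12 to 40 that did not follow lane signal, lowest for the first count without control 52. These counts are over the genes detected in all lanes kept, 198 to 240. Leaving out both shallow lanes, controls 52 and 69, an alternative added after seeing the data, gave a median CV of 20.5%, 7 genes over 50%, a common coefficient of 25.3% and 57 genes that did not follow lane signal; in that fit, the lanes compared differ less in depth, so a bound of 2 is easier to fall under. The deposited scores were not run for raw counts against lane signal, as they are already scaled. No paired analysis was possible because there is 1 group. Depth limits detection in control 52, whose limit of 24.4 raw counts equals 81.2 normalised counts, against 9.05 in control 40.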
